A study of Mus musculus with 16 samples.

Results

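The major histocompatibility complex of the mouse, H2, was described in islet chromatin of 8 inbred strains by taking every accessible region between 33.9 and 36.5 Mb of chromosome 17 (mm10). Peaks of the 16 sample lists were merged wherever they touched or overlapped, and the locus held 533 of the 362076 merged regions. The rule used position alone. Chromatin had been assayed in pancreatic islets by ATAC-seq, where sequencing adapters are inserted by a transposase wherever DNA is open, from 1 female and 1 male of each strain, with 50 islets per sample. The strains, by their labels, were 129S1_SvImJ, A_J, C57BL/6J, CAST_EiJ, NOD_ShiLtJ, NZO_HlLtJ, PWK_PhJ and WSB_EiJ, named 129, AJ, B6, CAST, NOD, NZO, PWK and WSB below. No treatment, age or batch was given in the labels. The only replicates of a strain were its female and its male sample (n = 2), and each SD below is over those 2 samples. A p-value for strain or sex is therefore set against the spread within these pairs. Strain classes were compared over the 8 strain means, so their p-values rest on the spread between strains of a class.

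H2 genes encode the molecules that show peptides to T cells. Class I comprises H2-K, H2-D and the Q and T genes. The H2-K and H2-D molecules present peptides from inside the cell and are made by nearly every cell type. Class II molecules (H2-A and H2-E) are mainly made by antigen-presenting cells such as macrophages, dendritic cells and B cells. The class III genes between class II and H2-D encode complement factors, the tumour necrosis factor family and housekeeping proteins. Tap1 and Tap2 carry peptides into the endoplasmic reticulum, Psmb8 and Psmb9 are subunits of the immunoproteasome, and Tapbp loads peptides onto class I molecules. B6 carries the H2 haplotype of the reference genome. H2 haplotypes differ in sequence and in the number of Q and T genes, so reads from another haplotype can be lost or placed at a related gene. What part this took in the values below was not tested.

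Promoter letters are shown for 4 class I genes with a strain effect (H2-K1, H2-D1, H2-Q6 and H2-T22), with H2-Q7 as a close relative of H2-Q6, and for a pair of class II genes. H2-Q5, H2-T10 and H2-Ab1 had no entry in the promoter table used. Each line gives the 250 bases before a start site in RefSeq (GRCm38.p6, the assembly of mm10), 5′ to 3′ on the strand of the gene. Capitals mark a kB-like element (GGGATTCCC), the core of an interferon response element (GTGAAACT) or the Y box (CTGATTGG), each searched on both strands.
H2-K1 (chr17:34000348-34000597, minus strand): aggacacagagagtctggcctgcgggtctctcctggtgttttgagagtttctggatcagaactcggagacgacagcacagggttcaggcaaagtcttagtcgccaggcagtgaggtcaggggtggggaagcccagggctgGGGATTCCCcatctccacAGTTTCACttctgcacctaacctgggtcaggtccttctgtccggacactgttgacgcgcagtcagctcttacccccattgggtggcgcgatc
H2-D1 (chr17:35262844-35263093, plus strand): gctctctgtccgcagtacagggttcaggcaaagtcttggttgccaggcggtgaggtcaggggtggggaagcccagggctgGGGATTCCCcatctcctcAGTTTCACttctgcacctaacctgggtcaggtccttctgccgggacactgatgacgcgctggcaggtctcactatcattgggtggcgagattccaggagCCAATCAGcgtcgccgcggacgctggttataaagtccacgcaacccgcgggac
H2-Q6 (chr17:35424600-35424849, plus strand): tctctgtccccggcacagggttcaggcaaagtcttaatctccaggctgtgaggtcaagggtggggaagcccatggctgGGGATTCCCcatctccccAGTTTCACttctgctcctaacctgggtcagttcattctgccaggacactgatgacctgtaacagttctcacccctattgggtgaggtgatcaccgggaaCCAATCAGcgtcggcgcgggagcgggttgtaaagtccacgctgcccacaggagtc
H2-Q7 (chr17:35438905-35439154, plus strand): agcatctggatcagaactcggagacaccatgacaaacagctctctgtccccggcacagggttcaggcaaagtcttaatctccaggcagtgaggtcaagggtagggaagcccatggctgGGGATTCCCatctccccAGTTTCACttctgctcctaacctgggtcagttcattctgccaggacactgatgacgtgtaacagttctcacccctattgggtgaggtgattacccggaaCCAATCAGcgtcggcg
H2-T22 (chr17:36042743-36042992, minus strand): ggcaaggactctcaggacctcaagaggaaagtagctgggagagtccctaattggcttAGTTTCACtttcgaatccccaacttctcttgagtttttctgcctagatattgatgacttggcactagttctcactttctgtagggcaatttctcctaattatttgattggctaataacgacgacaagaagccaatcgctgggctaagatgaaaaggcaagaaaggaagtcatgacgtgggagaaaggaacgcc
H2-Aa (chr17:34287824-34288073, minus strand): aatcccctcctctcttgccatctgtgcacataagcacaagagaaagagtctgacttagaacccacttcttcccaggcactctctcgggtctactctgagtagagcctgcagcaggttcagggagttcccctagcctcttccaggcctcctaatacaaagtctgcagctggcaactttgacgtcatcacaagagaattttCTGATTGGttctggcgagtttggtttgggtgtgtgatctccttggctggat
H2-Eb1 (chr17:34305617-34305866, plus strand): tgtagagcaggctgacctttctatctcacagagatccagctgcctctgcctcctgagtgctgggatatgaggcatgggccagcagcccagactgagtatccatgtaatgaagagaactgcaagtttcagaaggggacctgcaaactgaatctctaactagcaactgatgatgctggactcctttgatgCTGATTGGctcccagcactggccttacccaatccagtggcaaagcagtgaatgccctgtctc

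H2-K1, H2-D1, H2-Q6 and H2-Q7 each held the kB letters and the interferon response letters, in the same order. H2-D1, H2-Q6 and H2-Q7 held the Y box letters as well, so these did not separate class I from class II. The H2-K1 window printed here stops before the matching position. The window of another H2-K1 start ends in ccaatc, a part of these letters, so a Y box at H2-K1 was not assessed. Over all 32851 promoters of the RefSeq table the kB letters stood in 0.301%, the interferon response letters in 0.651% and the Y box letters in 3.83%. H2-Q6 and H2-Q7 were 97.2% identical over 211 aligned positions, H2-K1 and H2-D1 87.4% over 191, and H2-D1 and H2-Q6 83.1% over 249. H2-T22 held the interferon response letters alone of the 3, and H2-Aa and H2-Eb1 the Y box alone, the element at which class II genes are bound by the general factor NF-Y. A match describes letters and does not show that a factor bound there.

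To ask how much of the locus was open in every strain, regions were counted by the number of samples with a peak. Of the 533 H2 regions, 92 (17.3%) were called in all 16 samples, where 11.7% of all merged regions were. Promoter regions, those within 1 kb of a transcript start, made up 37.7% of H2 regions (201) and 11.2% of all regions. Among promoter regions alone, 65 of 201 in H2 (32.3%) were called in all 16 samples, and 35.0% of all promoter regions. At the other end, 193 H2 regions (36.2%) were called in 1 sample, against 46.3% of all regions. The share of H2 regions called in every sample was thus above the background over all regions and close to it among promoters.

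The class I framework, the stretch of conserved non-H2 genes that starts at Pou5f1, held 25 regions called in all 16 samples of 106, and class III held 21 of 108. The D and Q subregion, from H2-D1 to Pou5f1, held 6 of 71, and the T subregion 9 of 90. Another genomic match, of at least 95% identity over at least 50% of the region, existed for 39 of the 71 D and Q regions and 34 of the 90 T regions, and for 8 of the 106 framework regions. Over the whole locus 127 of 533 regions had such a match, 101 of them inside H2, so values in the D, Q and T subregions are the least certain. Of the 92 regions called in every sample, 7 had one. Intergenic regions numbered 197, introns 79 and exons 56, and no exon region was called in all 16 samples.

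H2 regions per sample ranged from 124 in the AJ male to 319 in the CAST female. Relative to all regions called in a sample, the 129 female had 3.03 H2 regions per 1000 and the other 15 samples had 1.32 to 2.27, the 129 male among them with 2.11. In the 129 female 86 H2 regions were called that were not called in the 129 male, 24 of them in the T subregion, and 8 were called the other way round. These 86 were weak. Their scaled signal, which is the summit signal over the median of the same sample across the 42427 regions called in all 16 samples, had a median of 0.267 and a maximum of 0.931. The 129 female also had the highest median scaled signal over the 92 shared H2 regions (2.02, against 1.23 in the 129 male), followed by the NZO male (1.89, against 1.14 in the NZO female). Both samples had the highest medians over all 14154 shared promoter regions as well, 2.19 and 2.2, where the other 14 lay between 1.43 and 1.92. A difference between the sexes of 129 or NZO within H2 therefore came with one at promoters in general.

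**Figure D1:**
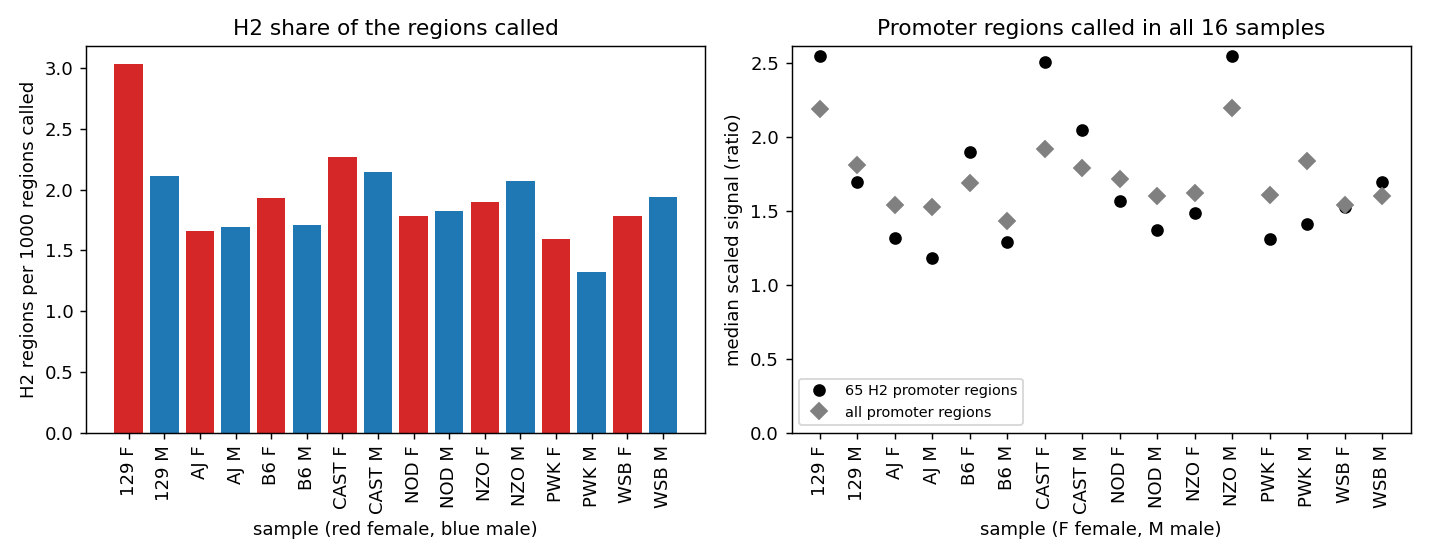
H2 regions per 1000 regions called in each sample (left, bars) and the median scaled signal, a ratio, over the 65 H2 promoter regions (black circles) and all 14154 promoter regions (grey diamonds) called in all 16 samples (right). The 129 female stands above the others on the left at 3.03, and the 129 female and NZO male carry the highest promoter medians of both sets on the right.

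The NZO male stood apart in another way. It was the only sample with a peak at the starts of Adgre1, Itgam, Laptm5, Lyz2 and Spi1, which mark macrophages and other myeloid cells. Of 12 leukocyte marker genes 7 had a region in it, and the other samples had 1 or 2 each. The summed scaled signal of the list was 3.89 in the NZO male and 0.105 to 0.79 in the other 15 samples. The B cell and T cell markers Cd79a, Ms4a1, Cd3e and Cd3g had no region in any sample. Islet endocrine genes were open as labelled, with 8 of 10 marker genes called in all 16 samples, Ins1, Ins2 and Gcg among them, while Sst had a region in 1 sample and Ppy in none. The NZO male was lowest of the 16 samples at Ins1 (1.45, others 2.31 to 6.49), Gcg (1.85, others 2.66 to 5.9) and Ins2 (0.382, others 0.4 to 1.77). The same sample was highest at Mafa (3.67, others 1.08 to 2.83). At Pdx1, Nkx6-1, Iapp and Chga it lay within the range of the others, so the list did not move in 1 direction. In a bulk sample more cells of a type and more open chromatin per cell cannot be told apart.

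Of the 5 immune gene lists, the classical class I genes had the highest median of the regions called in all samples, 3.4, followed by the other class I genes with 2.24 and antigen processing with 1.69. Starts outside these lists reached as high, with a median over samples of 5.14 at Abcf1 and 5.12 at Trim39. The 3 regions at H2-K1, H2-K2 and H2-D1 had means over the 16 samples from 3.27 to 5.59 times the sample median in summit height, and all were called in every sample. H2-D1, a classical class I gene, lay in a region at chr17:35262312-35272395. Its scaled signal was 16.1 in the CAST female and 14.0 in the CAST male, and 10.8 in the NZO male. The other 13 samples ran from 1.86 in the B6 male to 6.19 in the WSB male, so CAST did not overlap any other strain. The CAST mean was 15.1 ± 1.5 (SD, n = 2), and CAST was 1.98 higher on the log2(signal + 1) scale than the mean of the other 7 strains (SE 0.308, limma, Benjamini-Hochberg adjusted p = 0.000601). The strain effect at H2-D1 had an adjusted p of 0.00434 (limma F test with a term for sex). With the deposited mean signal of a peak in place of its summit both calls were lost (limma adjusted p = 0.212 for CAST and 0.0914 for strain).

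H2-K1, the other classical class I gene of B6, showed a similar order at chr17:33992600-34001718. CAST had 6.0 in the female and 5.17 in the male, the NZO male had 6.04 and the NZO female 3.05. AJ (1.75 and 1.78) and NOD (1.86 and 1.78) were lowest, and the CAST pair overlapped with the NZO pair alone. CAST was 1.04 higher than the mean of the other 7 (SE 0.255, limma adjusted p = 0.0115), and the strain effect had an adjusted p of 0.0104. With the mean signal both calls were lost (limma adjusted p = 0.587 for CAST and 0.135 for strain), the strain call was lost with regions called in at least 12 samples (0.0588), and the CAST call without the CAST female (0.204) or the CAST male (0.107). H2-K2, a class I gene beside it, ranged from 2.32 in the AJ female to 5.52 in the 129 female with an adjusted p for strain of 0.127 (limma).

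H2-Q5, a Q class I gene, had the widest range of the 92 shared regions, from 0.226 in the PWK female to 6.0 in the 129 female. It lay at chr17:35393018-35394525. The PWK male (0.469) and the NOD pair (0.756 and 0.72) were next lowest. The 129 male had 3.14, B6 3.95 and 2.05, and NZO 2.16 and 4.22, so that 129, B6 and NZO overlapped each other and lay above the other 5 strains, whose highest value was 1.49 in the CAST female. PWK was 2.38 lower than the mean of the other 7 on the log2 scale (SE 0.322, limma adjusted p = 0.000466), 129 was 1.8 higher (adjusted p = 0.0147) and the strain effect had an adjusted p of 0.00067. NZO was 1.2 higher (limma adjusted p = 0.0483), a call lost under most alternatives, and the 129 call was lost without the 129 female (limma adjusted p = 0.372). The region had 2 other matches of at least 95% identity, both inside H2, and is uncertain for that reason.

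H2-Q6 and H2-Q7, relatives of H2-Q5 whose promoters are printed above, were also lowest in PWK. At H2-Q6 (chr17:35423091-35431547) PWK had 1.1 and 1.28, and the next lowest were 1.91 and 2.42 in NOD. The 129 female (9.71) and the NZO male (9.62) were highest, well above the 129 male (4.61) and the NZO female (3.69). PWK was 1.74 lower than the other 7 strains (SE 0.33, limma adjusted p = 0.00437), and the strain effect had an adjusted p of 0.0113. Without the PWK female both calls were lost (limma adjusted p = 0.0944 for PWK and 0.0595 for strain), and the strain call also with regions called in at least 12 samples (0.0714). At H2-Q7 the PWK female had 0.919 and the PWK male no peak, which kept the region out of the fit. The other 14 samples ran there from 1.63 in the NOD male to 9.29 in the 129 female. H2-Q4 ranged from 1.51 in the AJ female to 4.64 in the 129 female (limma adjusted p for strain = 0.0838).

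H2-T22, a T class I gene whose product is bound by some gamma delta T cells, was low in PWK alone. At chr17:36041782-36043371 PWK had 0.855 and 0.906, and the other 14 samples lay between 2.24 in the B6 male and 4.28 in the 129 female. PWK was 1.82 lower on the log2 scale (SE 0.191, limma adjusted p = 6.94e-05). The strain effect (adjusted p = 0.001) held under every alternative tried for it, with adjusted p-values from 0.00029 to 0.0156, and no other genomic match was found. The pseudogene Gm6034 shares the region.

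**Figure D2:**
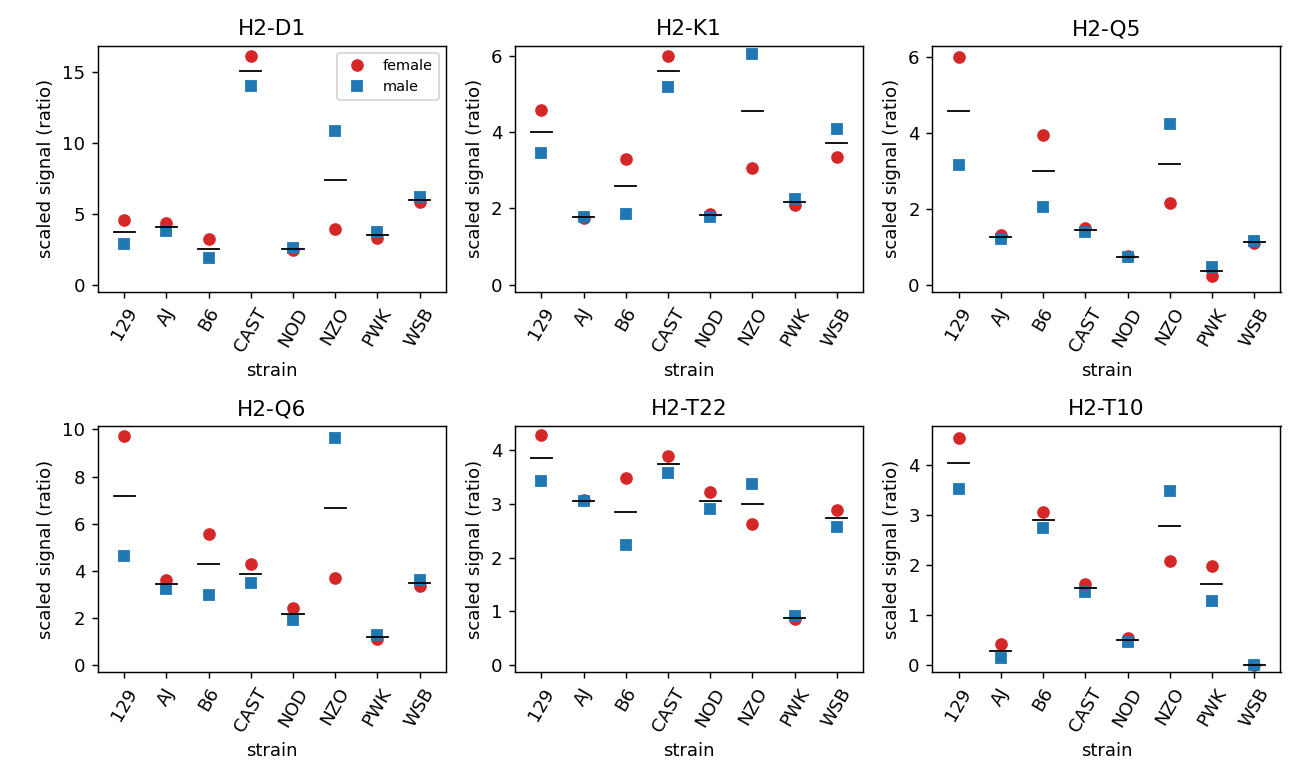
Scaled signal (a ratio to the sample median) of the female (red circle) and male (blue square) of each strain at 6 class I gene starts, with black lines at the mean of the 2 samples and 0 where no peak was listed. CAST lies highest at H2-D1 and PWK lowest at H2-Q5, H2-Q6 and H2-T22, while both WSB samples are at 0 at H2-T10.

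H2-T10, the close relative of H2-T22, had no peak in either WSB sample and a peak in the other 14. It was highest in 129 (4.55 and 3.52), NZO (2.07 and 3.49) and B6 (3.06 and 2.75), and low in AJ (0.415 and 0.145) and NOD (0.535 and 0.463). CAST had 1.62 and 1.46, and PWK 1.97 and 1.28. H2-T10 and H2-T22 thus differed in order, with PWK lowest at H2-T22 and WSB, AJ and NOD lowest at H2-T10. A neighbouring region in an intron of Gm7030 and BC023719 was likewise missing in WSB and called in the other 14, from 0.333 to 1.22. A region listed at 0 had no peak past the authors' threshold, which does not show that it was closed.

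The H2-T23 start (the gene of Qa-1) was called in all samples, from 1.0 in the AJ female to 2.25 in the B6 female (limma adjusted p for strain = 0.241). Just upstream, in an intron of A930015D03Rik at chr17:36033914-36035999, lay the H2 region with the smallest p-value for strain (limma adjusted p = 0.000407). Its mean was 1.36 ± 0.305 in CAST and 1.13 ± 0.283 in 129 (SD, n = 2 each), against 0.161 ± 0.0138 in NOD and 0.262 ± 0.087 in AJ. CAST was 1.45 higher (SE 0.265, limma adjusted p = 0.00191) and NOD 1.95 lower (adjusted p = 0.00215) than the mean of the other 7. The CAST call was lost without the CAST female (limma adjusted p = 0.0953), and the NOD call with the mean signal (0.324) and without the NOD female (0.136) or male (0.0803). The region had 1 other match inside H2. H2-Q5, H2-T22, a region at the starts of Gm8909 and Gm20478, and H2-D1 had the next smallest. The Gm8909 region was highest in 129 (1.38 and 0.913) and WSB (1.15 and 1.06), and the other 12 samples had 0.287 to 0.583, with no overlap (limma adjusted p for strain = 0.00272). With the mean signal the strain call was lost (limma adjusted p = 0.131) and the WSB difference turned from 1.14 to -0.080. H2-Bl differed by strain with an adjusted p of 0.0472 (limma), from 0.42 in the NZO female to 1.83 in the 129 female, and lost that call in most leave-one-out fits.

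The remaining class I gene starts were not called in every sample. H2-Q2 had no peak in AJ and PWK and 0.469 to 2.12 in the other 12 samples, highest in CAST and WSB. H2-Q1 was called in 8 samples, at most 0.656 in the PWK male. H2-Q10 was called in 14, H2-T24 in 15 and H2-T3 in 9, with values up to 1.17, 0.636 and 0.527. Of 13 listed Q, T and related class I genes, all 13 had a region in at least 1 sample, 6 had a region called in all 16 samples, and 4 of these 6 were called for strain, where 25.1% of all promoter regions were.

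Class II gene starts were open at lower levels. H2-Aa, which encodes the alpha chain of H2-A, was called in all 16 samples from 0.468 in the PWK female to 1.4 in the CAST female (limma adjusted p for strain = 0.135). H2-Ab1, which encodes its beta chain, ranged from 0.321 in the NZO female to 1.45 in the NZO male (adjusted p = 0.681, limma). H2-Eb1, the beta chain of H2-E, had 1.07 in the NZO female and 2.49 in the NZO male, while the other 14 samples lay between 0.436 in the AJ male and 1.21 in the 129 female. The strain effect at H2-Eb1 had an adjusted p of 0.0429 (limma). With the mean signal the limma adjusted p was 0.291, and with regions called in at least 12 samples 0.152. The call was also lost in most leave-one-out fits, the fit without the NZO male among them. All regions within 1 kb of a start of these 3 genes, weaker ones included, summed to 6.71 in the NZO male, whose leukocyte markers summed to 3.89, and to 1.55 to 4.95 in the others. The part of other cells in these class II values was not tested.

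**Figure D3:**
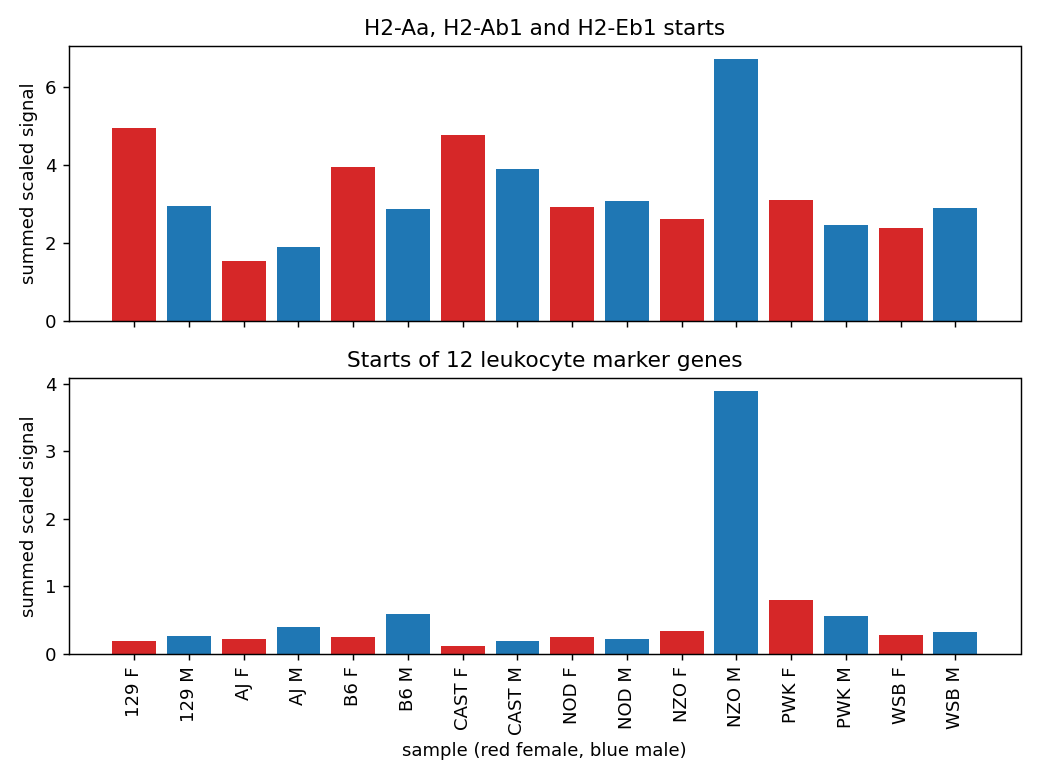
Summed scaled signal (a ratio to the sample median) per sample at the starts of H2-Aa, H2-Ab1 and H2-Eb1 (top) and of 12 leukocyte marker genes (bottom). The NZO male is highest in both, at 6.71 and 3.89, and the AJ samples are lowest at the class II genes, at 1.55 and 1.91.

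A further region inside H2-Eb1, at chr17:34309499-34310115, was absent from both AJ and both NZO samples and called in the other 12, from 0.341 in the WSB male to 0.833 in the B6 female. The absence in NZO went with an open H2-Eb1 start in the same samples. An H2-Eb1 intron region was missing in AJ alone and had 0.229 to 0.909 in the other 14 samples. H2-DMa, part of the H2-DM exchange factor that loads class II molecules, was called in all samples, from 1.68 in the AJ female to 4.51 in the NZO male (limma adjusted p for strain = 0.124), and a wider region that H2-DMa shares with Brd2 had 0.963 to 3.02 (adjusted p = 0.117, limma). H2-DMb1 was called in 15 samples and H2-Ob in 15. In the NZO male alone a peak was listed at H2-Oa (0.2), at H2-DMb2 (0.473 and 0.109) and at the pseudogene H2-Ea-ps (0.327), and an H2-Ob site (0.273). The b haplotype of B6 is known for a defective H2-Ea gene, which the table used annotates as H2-Ea-ps and not as H2-Ea. All 5 class II regions called in 1 sample were from the NZO male. That sample also held 57 of the 193 H2 regions called in 1 sample, more than any other sample. Of the 4 class II genes that could be tested, 1, H2-Eb1, was called for strain (25.1% of all promoter regions were).

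Of the 5 listed antigen processing genes, 4 were called in all samples, and none of these 4 passed the strain test. The start shared by Tap1 and Psmb9, which face away from each other, ranged from 1.08 in the B6 male to 2.81 in the CAST female (limma adjusted p for strain = 0.301). Psmb8 ranged from 0.913 in the 129 male to 2.0 in the CAST female (adjusted p = 0.324, limma), and the start shared by Tapbp and Zbtb22 was lowest at 2.5 (PWK male) and highest at 6.29 (NZO male), with an adjusted p of 0.447 (limma). A further Tapbp region ranged from 0.843 in the B6 male to 3.11 in the NZO male (adjusted p = 0.351, limma). Tap2 had weaker regions, called in 14, 14 and 1 samples and at most 0.724. Without the NZO male CAST was 0.67 higher at Psmb8 (limma adjusted p = 0.0261) and 0.62 higher at the Tap1 and Psmb9 start (0.0497).

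**Figure D4:**
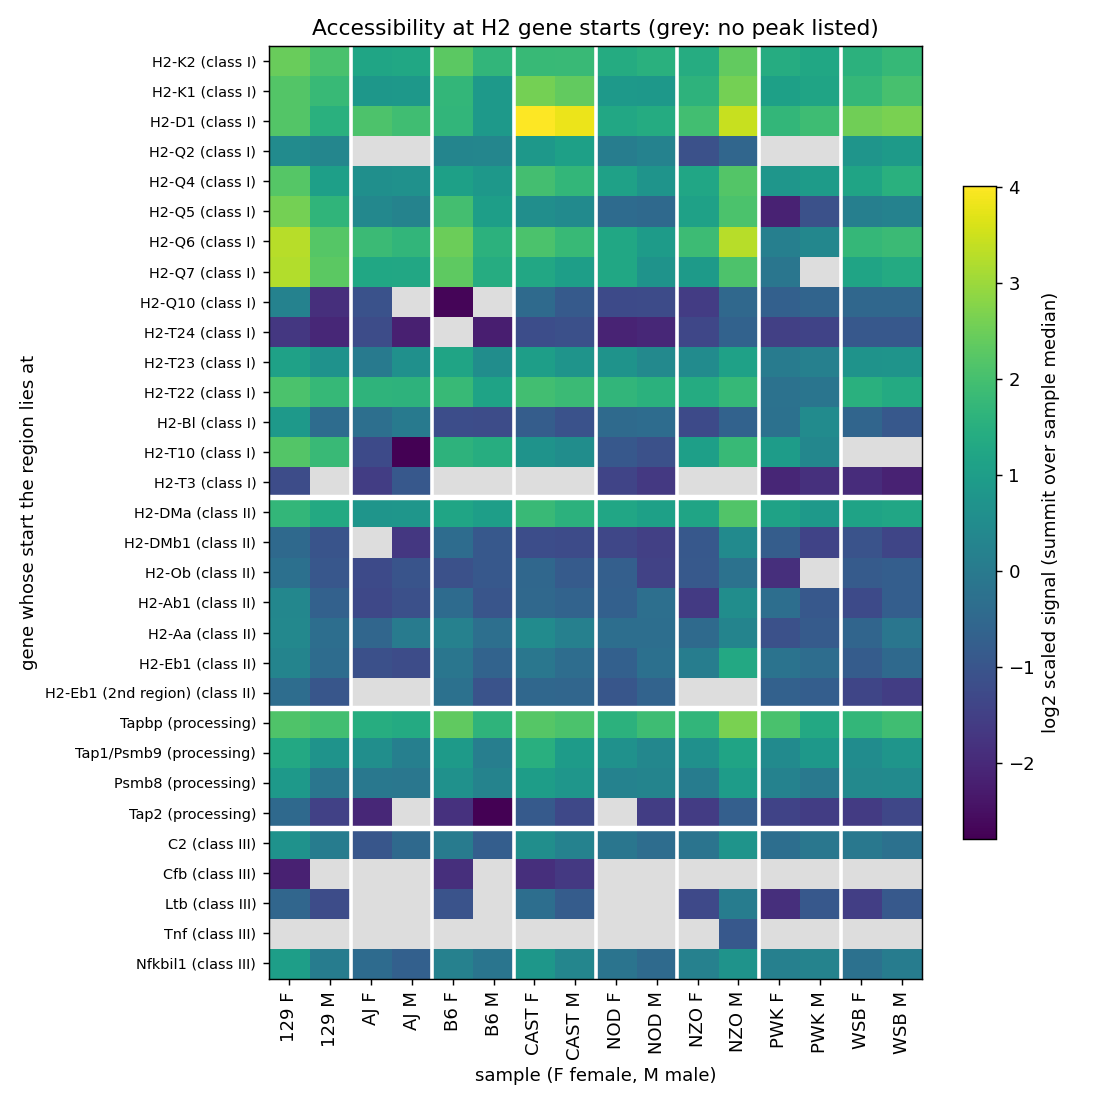
Log2 of the scaled signal in regions at H2 gene starts (rows, grouped by class) in the 16 samples (columns, female then male of each strain), grey where no peak was listed. The brightest cells are CAST at H2-D1, and grey cells fall in whole strains at H2-Q2 (AJ and PWK), H2-T10 (WSB) and the second H2-Eb1 region (AJ and NZO).

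Of the class III immune genes, C2 shares its start with Zbtb12 and was called in all samples (0.508 to 1.67, limma adjusted p for strain = 0.137), as was Nfkbil1 (0.618 to 2.03, adjusted p = 0.0669, limma). Ltb, which encodes lymphotoxin beta, had a region in 11 samples, at most 1.05 in the NZO male. Tnf (0.527) and C4b (0.291) were listed in the NZO male alone, Ager and C4a in the CAST female alone, and Cfb in 4 samples. Lta, Lst1 and Aif1 had no region within 1 kb of a start. Of the genes that had a region called in all samples, 1 of 21 other class III genes (Msh5) had a strain call, none of 10 of the extended class II group, and 4 of 24 framework genes, beside 25.1% of all promoter regions. The framework genes were Tcf19, Cchcr1, Atat1 and Trim15. Tcf19 and Cchcr1 share a region, and the Trim15 region lies beyond the 36.5 Mb end of the window and is not among the 533. The 24 also count Trim26, Znrd1, Ppp1r11 and Rnf39, whose shared regions lie outside the window too. Elsewhere in the genome, 18 listed genes serve H2 expression or loading, and 16 of them had a region called in all samples. Of these 16, 4 had a strain call, near the 25.1% of all promoter regions. Rfxank, Cd74 and Canx were among the 4. B2m, the light chain of class I, did not pass (2.7 to 5.29, limma adjusted p = 0.275), nor did Nlrc5, the class I transactivator (adjusted p = 0.224, limma). Ciita, the class II transactivator, had a region in 8 samples, at most 0.418 in the NZO male.

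Over the locus, 24 of the 92 regions called in every sample (26.1%) had a strain effect, where 34.9% of all 42427 such regions did. Among promoter regions 12 of 65 were called (background 25.1%), and among other regions 12 of 27 (background 39.8%), so the H2 counts were near or below the share over all regions. Of the 24, 5 lay in the D and Q subregion, which had 6 shared regions, and 6 in the T subregion, which had 9. The K and extended class II subregion had 1 of 10, class II 2 of 13, class III 2 of 21, the framework 4 of 25, and the Trim and M10 end of the locus 4 of 8. Without the NZO female, 61 of 92 were called (59.3% of all regions), and without the NZO male 40 of 93 (45.2%). Fewer were called without either CAST sample or either WSB sample, and the share over all regions fell in each of these fits as well. Of the 24, 23 were also called without the NZO male, and H2-Eb1 was the exception.

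Each strain was then set against the mean of the other 7. The 8 contrasts share samples and are given side by side. CAST was higher at 13 of the 92 H2 regions (background 6.79%) and lower at 1 (background 13.4%). Of the 65 promoter regions CAST was higher at 4 (background 5.21%) and lower at 1 (8.53%), and of the 27 others it was higher at 9 (7.59%) and lower at none (15.8%). Its median difference over the 92 regions was 0.42 on the log2 scale, beside -0.01 over all regions. Over promoter regions alone it was 0.42 in H2 beside 0.08 over all. The CAST-higher regions included H2-K1, H2-D1, a region 10740 bases from the Tap2 start (3.58 and 3.27 in CAST and 1.0 to 2.29 elsewhere, with 3 other matches and mostly repeat letters) 3 intergenic regions with H2-D1 as their nearest coding start and another with H2-Q1. The CAST-higher count was 1 without the CAST female (1.3% of all regions), 2 without the CAST male (1.02%), 20 without the NZO female (9.21%) and 36 without the NZO male (11.4%).

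The 129 strain was higher at 4 regions (background 0.957%) and lower at none (2.01%), with a median of 0.34 beside 0.09 over all regions, and without the 129 female none was called higher. AJ was lower at 5 (background 3.01%) and higher at none (3.58%), with a median of -0.42 beside 0.07, and the AJ-lower count was 34 without the NZO female (10.4% of all regions) and 0 without the AJ female (0.19%) or the AJ male (0.102%). Over promoter regions alone the 129 median was 0.41 in H2 beside 0.23 over all, and the AJ median was -0.49 beside -0.09. The AJ-lower regions included the starts of Slc39a7 with Rxrb, of Ddx39b and of Atat1. At Slc39a7 the direction turned with the deposited mean signal in place of the summit. PWK was lower at 3 (background 5.69%), which were H2-Q5, H2-Q6 and H2-T22, and higher at none (5.16%). The PWK-lower count was larger without the NZO female, and it was 80 without centring. NZO was higher at 2 (background 2.22%) and lower at 2 (2.83%), and the NZO-higher count was 35 without the NZO female (12.9% of all regions) and 0 without the NZO male (0.212%). B6 was lower at 2 (background 1.59%) and higher at none (1.37%). NOD was lower at 1 (background 1.32%), the region upstream of H2-T23, and higher at none (1.64%). The NOD-lower count was larger without the NZO female, and the NOD call was lost without either NOD sample. WSB was higher at 2 (background 2.56%), at none without either WSB sample, and lower at none (3.08%). In all 21 contrast calls were higher and 14 lower, and with no centring on the sample median 88 were higher and 102 lower. No share over all regions is given for the uncentred counts, or for PWK and NOD without the NZO female. A change in H2 is therefore not told apart there from a general one.

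**Figure D5:**
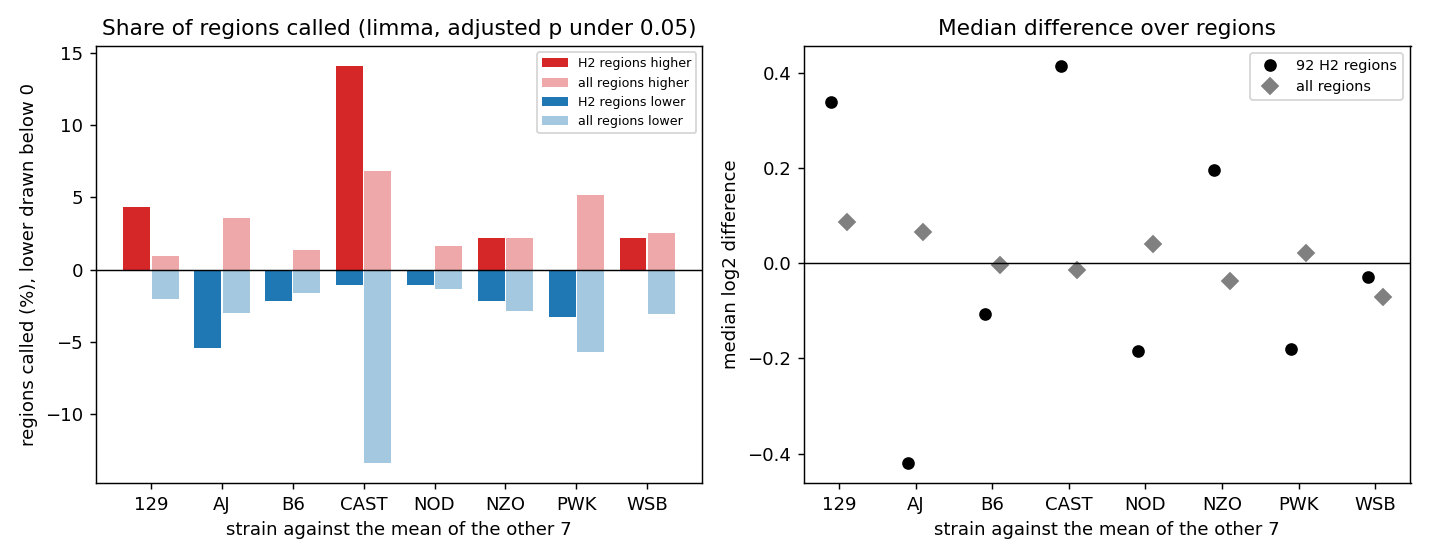
Left, the percent of regions called higher (red) or lower (blue, drawn below 0) in each strain against the mean of the other 7, for the 92 H2 regions (dark) and all 42427 regions (pale). Right, the median log2 difference over the same regions, where H2 lies at 0.42 in CAST and at -0.42 in AJ and all regions lie near 0. H2 regions and all regions differ in their share of promoters.

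When the 3 wild-derived strains (CAST, PWK and WSB) were compared with the 5 classical strains over the 8 strain means, no H2 region passed (limma, background 0.033%), and 3 had an unadjusted p under 0.05. These were an intergenic region 17982 bases from the H2-Q1 start, another 8431 bases from H2-D1, and H2-Q5. At the first, 0.938 to 2.7 in the 6 wild-derived samples stood beside 0.261 to 1.62 in the 10 classical ones, of which the NZO male was highest. Wild-derived strains were 1.49 higher there (SE 0.33, limma adjusted p = 0.158). The median difference over the 92 regions was 0.08, beside -0.05 over all regions. Sex was called at none of the 92 (limma, background 0.00943%), and none had an unadjusted p under 0.05, the smallest being 0.0873. Without the NZO female or the NZO male, 7 and 8 had an unadjusted p under 0.05 for sex and again none passed after adjustment.

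Regions listed in 1 strain alone were counted next, by a peak in both its samples and in no other. H2 held 26 of them, 17 in CAST, 5 in WSB, 2 in NZO, 1 in 129, 1 in B6 and none in AJ, NOD or PWK. CAST held 65.4% of the H2 regions of this kind and 39.4% of such regions genome-wide, PWK none and 24.2%, and WSB 19.2% and 22.2%. All 26 were weak. The strongest in CAST were 3 regions between Tap2 and H2-Ob, with 0.648 and 0.5, 0.543 and 0.485, and 0.276 and 0.309 in the female and male. They belonged to a run of 6 CAST-only regions within 18501 bases, at chr17:34214415-34232915. Of these 6, 5 lay mostly in letters that the reference marks as repeats, and the same 5 had at least 127 to at least 1001 other matches (hits were capped per chromosome) of at least 95% identity, so reads there cannot be placed with certainty. Over all CAST-only H2 regions 8 of 17 were mostly repeat, beside 72 of all 533 and 2 of the 92 called everywhere.

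In NZO a region 4335 bases from the Psors1c2 start had 0.494 and 0.582 and another near Ier3 0.235 and 0.218, and neither had another match. WSB had a region in an intron of Sfta2 (0.292 and 0.261), a site in an exon of Tap2 (0.217 and 0.182) and a region near H2-Q1 (0.123 and 0.193). B6 had a region 7114 bases from Ddr1 (0.381 and 0.277), and 129 a region at the starts of Gm18604 and Gm29402 (0.379 and 0.203). The reverse, a region called in 14 samples and in neither sample of 1 strain, occurred 7 times in H2 and 2619 times over all regions. AJ lacked 3 (634 over all regions), the H2-Eb1 intron region, the start shared by Ly6g6c and Mpig6b (0.193 to 0.873 elsewhere) and that of D17H6S53E (0.28 to 0.982). WSB lacked 2 (105 over all regions), H2-T10 and its neighbour, B6 lacked an intergenic region 14958 bases from Ppp1r10 with 33 other matches, and NZO lacked the start of Stk-ps1 with 1 other match.

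The strain profiles over the 92 shared regions were compared by correlation. After the mean of each region was removed, the strain means correlated at r = 0.38 between AJ and NOD, 0.23 between 129 and NZO and 0.21 between 129 and B6. Over all 42427 regions the same pairs had 0.42, 0.09 and -0.12. The lowest value was -0.46 between AJ and NZO. These are descriptions across regions (n = 92), which share the depth of each sample and are not independent replicates, and removing the mean of 8 strains makes unrelated profiles correlate below 0. The deposited strain lists, which score the agreement of the female and male, held 56 of the 92 regions in all 8 strains. They held none of the 193 regions called in 1 sample, which follows from the lists, since no second sample had a peak there.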

How the data were processed

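ATAC-seq peaks of 16 islet samples were used. Per the study's methods the authors trimmed reads with cutadapt 2.0, aligned them to mm10 with Bowtie2 2.3.4.1, removed duplicates with Picard 2.9.2 and ran the MOSAiCS peak caller on each sample (false discovery rate 0.05). A transposase shift and a mapping quality filter were not given in the sources used here. The deposited summit signal is a peak height that is not scaled for depth, the files give no read total per sample, and the deposited −log10 p-value ranked peaks for a stricter alternative. All mm10 reads were placed on the B6 sequence. Strain lists joined the female and male at an irreproducible discovery rate of 0.05.

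Peaks were merged in Python 3.11.15, and in each sample a region took the highest summit signal of its peaks. Region sequences were extracted with bedtools 2.31.1. For description, summit signal was divided by the median of the sample over regions called in all 16 samples. For the tests, log2(summit signal + 1) was centred on that median in each sample and fitted with limma 3.58.1 (R 4.3.3) over all such regions outside chromosome Y, with strain and sex as terms and Benjamini-Hochberg adjustment at 0.05. The strain classes were compared over the 8 strain means. Each log2 difference is on that scale, which understates the change of low regions. Other matches were found with blastn 2.17.0 (at least 95% identity over at least 50% of the region), and gene starts came from GENCODE release M21. The text names regions within 1 kb of a start in the 5 H2 immune gene lists, the 5 with the smallest p for strain and 3 for strain class, and up to 3 per strain that were called in it alone or missing from it alone. Other regions called for a contrast were named after their values were seen. The members and lists were chosen with earlier results of these data known. The fit was checked on simulated data. Alternatives changed the centring, the signal column, the pseudocount, the peak threshold, the filter and the samples. Single results for a few genes of the lists outside H2 are not reported here.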

Additional observations from a re-analysis of the deposited data

Results flagged for a closer look

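In 20 groups of samples tested for a sample far from the others, 6 such values were found, and chance gives about 1 in 20 groups. The 129 female had 3.03 H2 regions per 1000 regions called, far from the other females and from the other samples of classical strains. The summed leukocyte marker signal of the NZO male, 3.89, stood far from the other males and from the other samples of classical strains. The NZO male also stood far from the other males in the summed signal at H2-Aa, H2-Ab1 and H2-Eb1, with 6.71. The PWK female stood far from the other females in the leukocyte marker sum, with 0.79. The causes were not tested.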

How the results depend on the processing

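Without centring on the sample median, 86 H2 regions had a strain effect, 88 contrasts were higher and 102 lower, and CAST was higher at 83. The median summit signal over all shared regions, 32 to 136 between samples, stays in these uncentred values. Shares over all regions are not given for this setting. With the more significant 50% of peaks, 57 regions were called in all 16 samples, 11 had a strain effect, 9 contrasts were higher and 9 lower, and CAST was higher at 8. With regions called in at least 12 samples, 58 contrasts were higher and 49 lower. With a pseudocount of 10, CAST was higher at 21. The 8 strain lists shared 56 regions. Leaving out 1 sample gave 12 to 61 strain effects, 5 to 70 higher and 7 to 64 lower contrasts, and 1 to 36 regions higher in CAST. With the deposited mean signal in place of the summit, 3 differences reversed, AJ at Slc39a7 and Rxrb to 0.25, CAST at Tcf19 and Cchcr1 to -0.078 and WSB at Gm8909 to -0.080. The causes of these changes were not tested. The calls of single regions in a contrast were counted once for each setting. Under the settings that kept all 16 samples, a call was kept 254 times and lost 49 times, beside the 3 reversals. Calls were lost more often when a sample was left out, where some fits rest on 1 sample of a strain. The strain class and sex counts were 0 under every setting tried, with 1 to 10 and 0 to 8 regions at an unadjusted p under 0.05 (limma). Centring promoter and other regions apart, chosen after seeing the data, gave 25 strain effects and 15 regions higher in CAST. The files give no read depth per sample, so a missing peak may reflect depth.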
